A study of Sus scrofa with 21 samples.

Results

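The nuclear genes of respiratory complex I were followed in RNA sequencing libraries from the hearts of 21 neonatal pigs (Sus scrofa), 1 library per pig. The members were the rows of the deposited count table whose gene name starts with NDUF, without the assembly factors named NDUFAF, that reached at least 1 CPM (counts scaled to a common library size) in at least 2 libraries. Of 32 such rows, 31 met this level and 1, NDUFB7 (ENSSSCG00000013778), was listed at 0 in every library. The 31 members are 31 of the 25880 genes in the table, and all 31 passed the low-count filter that left 15359 genes for testing. A further 4 rows carried no name in the deposited table and were given an NDUF symbol (NDUFB1, NDUFAB1, NDUFB5 and NDUFA2) only by a reference table of gene IDs, so they are not members and are described apart.

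The pigs with a myocardial infarction (MI) were injured on postnatal day 1 by a lasting tie on the left descending coronary artery, and their hearts were collected on day 7 (n = 3), day 14 (n = 3) or day 28 (n = 2). Naive hearts were collected on day 1 (n = 2), day 3 (n = 2), day 7 (n = 3), day 14 (n = 3) and day 28 (n = 3). The sample titles give the word naive, whereas by the treatment protocol age-matched normal pigs went through surgery with no vessel tied, and which of these holds is unsettled. Tissue came from the border zone of the ischaemic area in MI hearts and from the matching region of naive hearts, all pigs were fed colostrum and milk in an incubator, and no strain, sex, litter or sequencing batch is given in the labels.

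Complex I is the largest enzyme of the mitochondrial respiratory chain. It takes electrons from NADH in its matrix arm, passes them along a row of iron-sulfur clusters to ubiquinone, and pumps protons through its membrane arm. Its core subunits carry the cofactors or the proton channels, and a shell of accessory subunits holds the complex together. The proton-pumping core is encoded in mitochondrial DNA and the rest in the nucleus. Heart muscle is rich in mitochondria and makes most of its ATP by respiration, more so after birth than before it.

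Total counts were 49764677 to 95559841 in the 8 MI libraries and 37002909 to 74912650 in the 13 naive libraries. The 13 mitochondrially encoded protein genes took 15.8% to 34.6% of the counts, with MI day 28 replicate 1 the highest library. Of 12 cardiomyocyte markers 11 were in the table, and their summed level was 39110 to 75510 CPM in MI libraries and 58160 to 101100 CPM in naive libraries, with TNNI3 listed at 0 throughout. A set of 4 libraries stood apart from the others at 1 gene without a name, ENSSSCG00000035520, which had 5.06 to 12.1 CPM in them and 2819 to 8808 CPM in the other 17. They comprise replicate 3 of MI day 7, replicate 2 of MI day 28, replicate 3 of the naive hearts of day 14 and replicate 2 of those of day 28, and counts and medians of those days are also given without them. Each library is from a separate pig, so the spread between libraries is between pigs.

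The summed level of the 31 members was lower in MI than in naive hearts in most libraries, with MI day 14 replicate 1 as the exception. On day 7 the sum was 4852, 5630 and 4726 CPM in MI hearts, against 6485, 6120 and 6655 CPM in naive hearts. On day 14 it was 6804, 3881 and 4687 CPM in MI hearts, against 6385, 6375 and 5540 CPM in naive hearts. On day 28 it was 5246 and 3681 CPM in MI hearts, against 6021, 6288 and 6994 CPM in naive hearts. The MI and naive libraries thus did not overlap on days 7 and 28 and overlapped on day 14. Younger naive hearts had sums of 8826 and 5565 CPM on day 1 and 7752 and 5944 CPM on day 3, where the replicates differed more than on any later naive day. In whole tissue, fewer cells of a type and less RNA per cell cannot be told apart. When the mitochondrially encoded genes were left out of the library total, the sum was 6562 and 5411 CPM in MI hearts and 7575, 7400 and 8653 CPM in naive hearts on day 28. With the same scaling it was 6223, 7182 and 6148 CPM in MI hearts and 8121, 7962 and 8450 CPM in naive hearts on day 7. On day 14 it was 8511, 5509 and 6128 CPM in MI hearts, against 8904, 7709 and 6357 CPM in naive hearts, so MI replicate 1 then lay among the naive libraries. In CPM without TMM scaling, MI day 14 replicate 1 stood at 6686 CPM, also below the highest naive library of that day at 6721 CPM. On that scale MI replicate 3 at 4999 CPM was above the lowest naive library at 4469 CPM, and MI replicate 2 was at 4434 CPM.

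**Figure D1:**
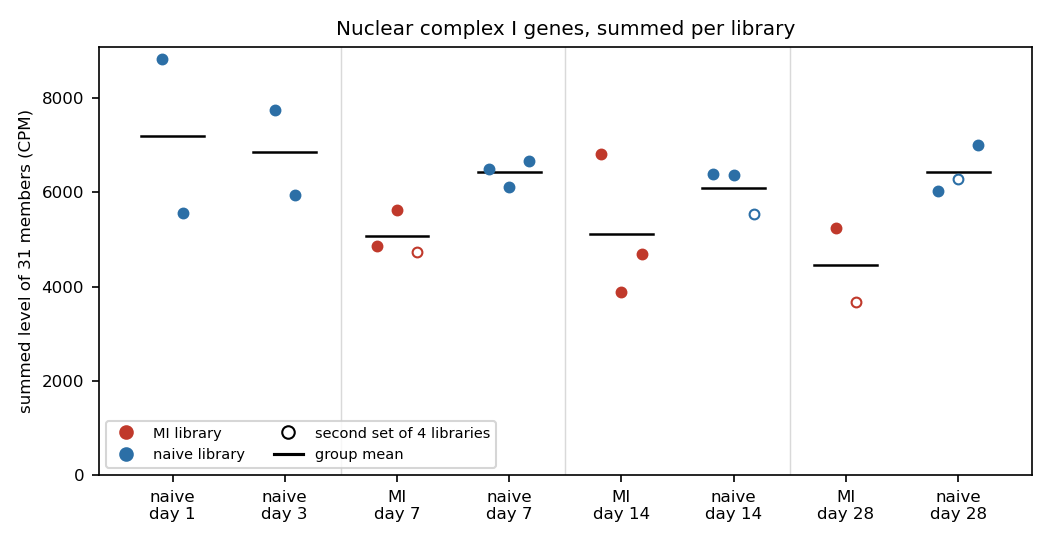
Summed level of the 31 members in CPM on the y axis for each library, by group on the x axis, with MI libraries in red, naive libraries in blue, the 4 libraries that stand apart as open circles and the group mean as a line. The MI libraries sit at 4726 to 5630 CPM on day 7 and at 3681 and 5246 CPM on day 28, below every naive library of the same day, while MI day 14 replicate 1 at 6804 CPM sits above the naive libraries of its day on this TMM scale, though not when scaled to nuclear genes (8511 CPM, against 8904 CPM in the highest naive library).

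The extremes were concentrated in few libraries. On the TMM scale, MI day 28 replicate 2 was the lowest of the 21 libraries for 17 of the 31 members. MI day 14 replicate 2 was the lowest for 10, and naive day 1 replicate 1 was the highest for 21. Counted library by library, 26, 17 and 25 members were below every naive library of the same day in the 3 MI day 7 hearts, as were 25.1%, 24.5% and 33.3% of all genes. The counts were 0, 29 and 19 in the 3 MI day 14 hearts (23.2%, 26.5% and 24.1% of all genes), and 19 and 31 in the MI day 28 hearts (36.3% and 36.9% of all genes). The coefficient of variation within a group had a median over members of 11.6% in MI day 7, 31.1% in MI day 14 and 20.7% in MI day 28 hearts. In naive hearts this median was 35.3% on day 1, 17.4% on day 3, 10.8% on day 7, 13.9% on day 14 and 12.4% on day 28.

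**Figure D2:**
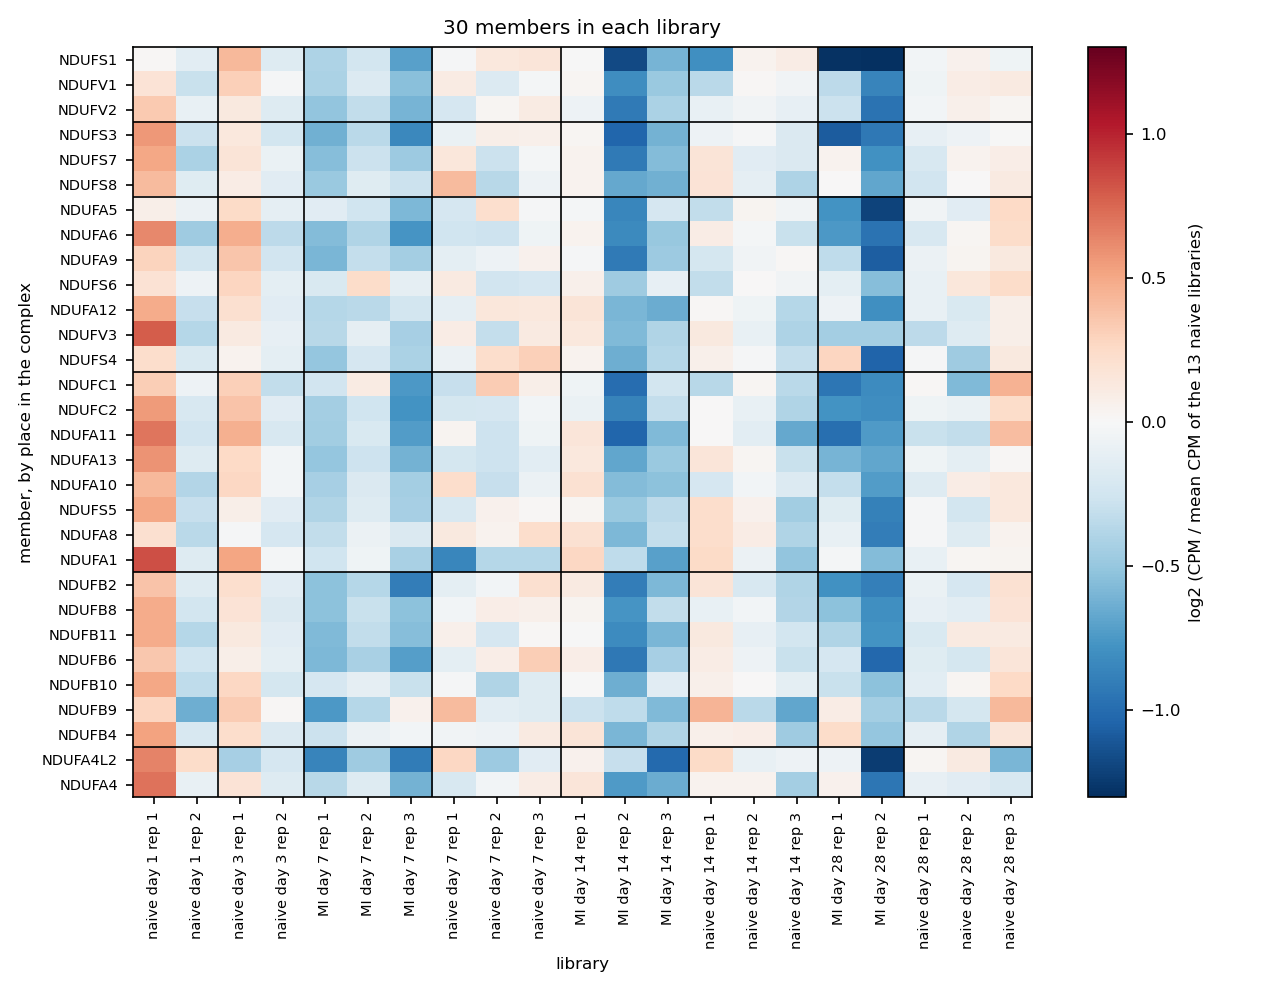
30 of the members (rows, ordered by place in the complex) in each of the 21 libraries (columns, by group), coloured by log2 of its CPM over the mean CPM of the 13 naive libraries, from blue (lower) to red (higher), values running from −1.31 to 0.84. The columns of MI day 14 replicate 2 and MI day 28 replicate 2 are blue almost throughout, and that of naive day 1 replicate 1 is mostly red.

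Day 28 was the day on which members passed the test. With edgeR's quasi-likelihood test, adjusted over all genes, 3 of the 31 members were called lower in MI than in naive hearts and 0 higher, at an adjusted p under 0.05. Of all 15359 genes tested, 6.86% were called on this day and 2.38% were called lower. The called members were NDUFS1, NDUFA5 and NDUFS3, from the NADH end of the matrix arm, its accessory shell and the quinone end. The log2 fold change, MI over naive, had a median of −0.53 over the members and 0.0048 over all genes. The members' median was −0.80 without MI day 28 replicate 1, −0.31 without replicate 2 and −0.32 without the 4 libraries that stand apart. The value was below 0 for 30 of the 31, and 15 members had an unadjusted p under 0.05, as had 27% of all genes. In 19 members every MI library was below every naive library, an order seen in 21.4% of all genes.

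**Figure D3:**
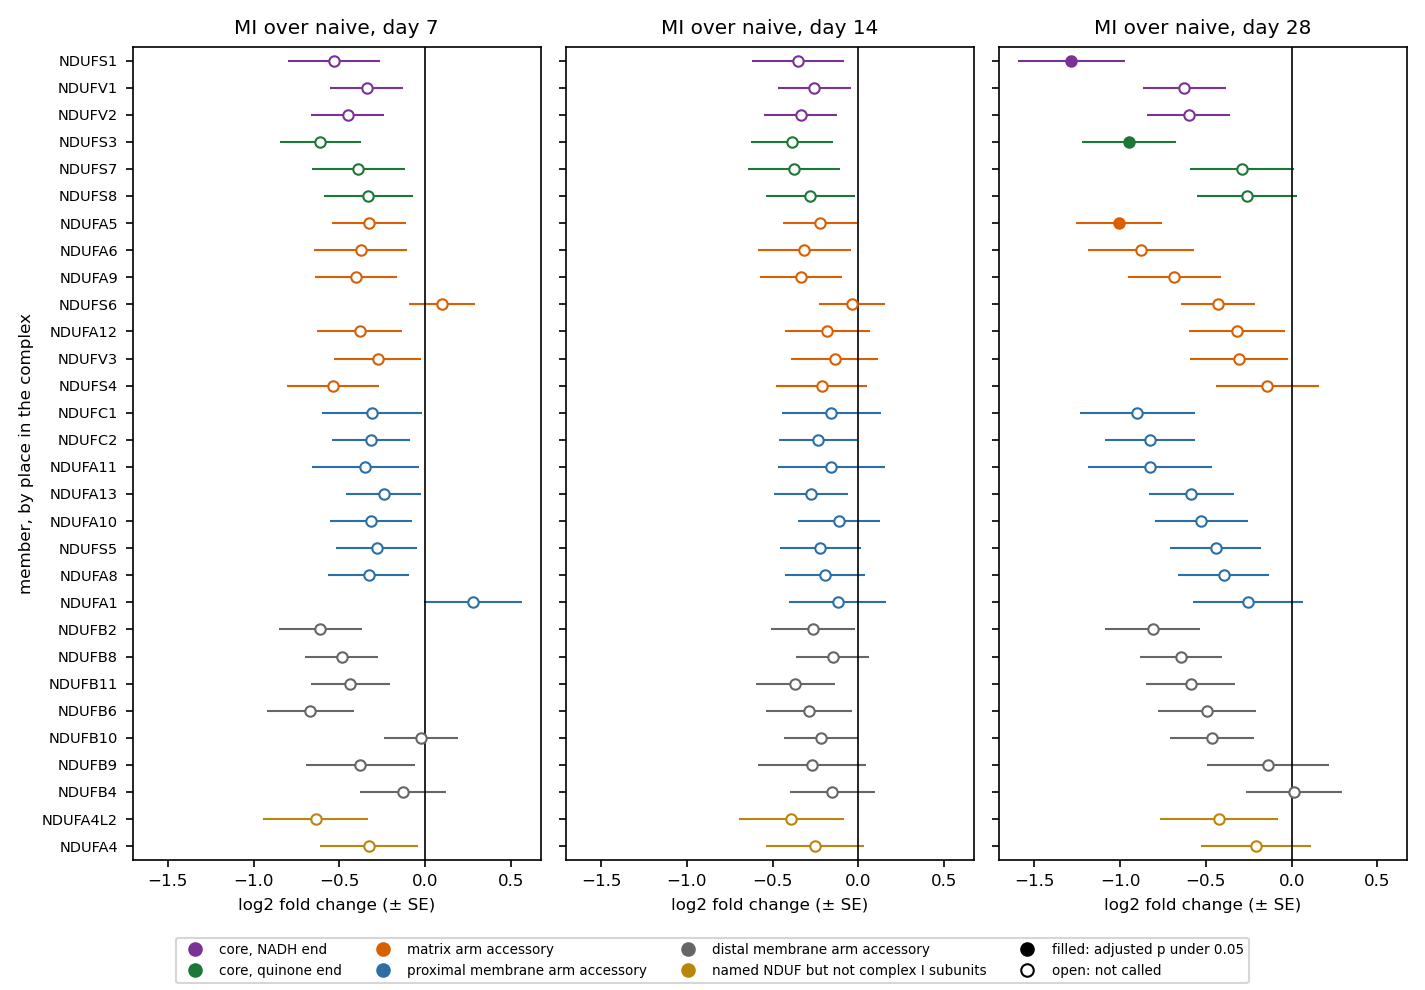
Log2 fold change, MI over naive, on the x axis with its standard error as a bar for 30 of the members (rows, coloured by place in the complex) on days 7, 14 and 28, with filled points for members called at an adjusted p under 0.05. Most points lie left of 0 in each panel, and the filled ones are NDUFS1 at −1.29, NDUFA5 at −1.01 and NDUFS3 at −0.95, all on day 28.

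The upstream sequences of the called members are shown together with that of NDUFS4, a member whose MI libraries of day 28 lay on opposite sides of the naive ones. Each is the 250 bases before the start of the RefSeq gene on Sscrofa11.1, the build of the counts, read 5′ to 3′ on the gene's strand. They lie at chr15:109451814-109452063 (minus strand) for NDUFS1, chr18:23881622-23881871 (plus) for NDUFA5, chr2:15036881-15037130 (minus) for NDUFS3 and chr16:32874168-32874417 (plus) for NDUFS4. Capitals mark letters matching the ETS motif CCGGAAG or its reverse complement (NDUFS1, NDUFS3) or the NRF1 motif GCGCANGCG (NDUFA5), and NDUFS4 has none of the 4 motifs searched. These matches were not particular to called members. NDUFB4, the member with the highest day 28 value, has 2 NRF1 matches. The ETS motif was also found for NDUFA10, NDUFA9, NDUFB9 and NDUFV1, which were not called on that day.
NDUFS1: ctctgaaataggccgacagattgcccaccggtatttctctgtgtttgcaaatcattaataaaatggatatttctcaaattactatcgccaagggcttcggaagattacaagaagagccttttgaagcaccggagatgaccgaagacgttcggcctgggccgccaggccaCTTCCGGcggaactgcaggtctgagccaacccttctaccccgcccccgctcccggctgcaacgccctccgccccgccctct
NDUFA5: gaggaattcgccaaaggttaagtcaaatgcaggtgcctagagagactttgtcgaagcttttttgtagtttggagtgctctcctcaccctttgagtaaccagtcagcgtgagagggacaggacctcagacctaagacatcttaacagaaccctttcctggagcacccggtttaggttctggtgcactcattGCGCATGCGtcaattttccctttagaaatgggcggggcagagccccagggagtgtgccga
NDUFS3: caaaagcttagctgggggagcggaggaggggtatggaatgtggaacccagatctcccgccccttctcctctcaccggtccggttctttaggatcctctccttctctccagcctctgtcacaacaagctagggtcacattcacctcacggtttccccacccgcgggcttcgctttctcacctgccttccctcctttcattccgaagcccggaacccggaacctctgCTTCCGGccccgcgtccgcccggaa
NDUFS4: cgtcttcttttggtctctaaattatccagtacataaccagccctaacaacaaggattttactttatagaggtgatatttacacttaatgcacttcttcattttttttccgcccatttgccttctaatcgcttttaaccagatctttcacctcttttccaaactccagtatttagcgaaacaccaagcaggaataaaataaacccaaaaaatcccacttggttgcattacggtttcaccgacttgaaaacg

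At the NADH end, where NDUFV1 binds NADH and the flavin and hands electrons to the clusters of NDUFV2 and NDUFS1, all 3 core members had negative day 28 values and NDUFS1 was called. NDUFS1 (ENSSSCG00000016127, chr15:109413726-109451813, minus strand) is the largest core subunit and holds several of the clusters. Its level was 183 and 180 CPM in MI hearts, against 436, 464 and 430 CPM in naive hearts. The MI pair differed by less than the naive libraries did among themselves and sat far below them. The log2 fold change was −1.29 (SE 0.312, edgeR adjusted p = 0.0294). NDUFS1 also took a smaller part of the members' summed level, 3.5% and 4.9% in MI hearts against 7.24%, 7.38% and 6.15% in naive hearts of that day. In another naive library, day 14 replicate 1, that share was 4.02%.

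NDUFV1 had 139 and 97.4 CPM in MI hearts, against 169, 188 and 191 CPM in naive hearts, with edgeR's log2 fold change at −0.63 ± 0.242 (SE) and its adjusted p at 0.110. NDUFV2 had 209.5 and 131 CPM in MI hearts, against 249.5, 267 and 259 CPM in naive hearts, with edgeR's log2 fold change at −0.60 ± 0.241 (SE) and its adjusted p at 0.123. For both, the MI libraries lay below the naive ones and the test did not call them.

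At the quinone end, NDUFS3 was called and NDUFS7 and NDUFS8 were not. NDUFS3 (ENSSSCG00000032081, chr2:15031147-15036880, minus strand) is a core subunit of the matrix arm that carries no cluster. It had 74.4 and 82.5 CPM in MI hearts, against 146, 150.2 and 157 CPM in naive hearts. The log2 fold change was −0.95 (SE 0.274, edgeR adjusted p = 0.0479), close to the threshold. Its gene overlaps KBTBD4 on the opposite strand, which had 4.94 and 10.2 CPM in MI hearts and 13.1, 12.6 and 13.4 CPM in naive hearts. The strand setting of the counting is not given in the sources used here, so reads from the overlap cannot be told apart.

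NDUFS8 and NDUFS7 carry the iron-sulfur clusters that lead to ubiquinone. NDUFS7 had 291 and 164 CPM in MI hearts, against 244, 291 and 299 CPM in naive hearts, with edgeR's log2 fold change at −0.29 ± 0.304 (SE) and its adjusted p at 0.563. NDUFS8 had 387.5 and 242 CPM in MI hearts, against 326, 388 and 419 CPM in naive hearts, with edgeR's log2 fold change at −0.26 ± 0.291 (SE) and its adjusted p at 0.589. For both, MI replicate 2 was below the naive libraries and MI replicate 1 lay among them.

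Of the 7 accessory members of the matrix arm, NDUFA5 was called and the group's median log2 fold change was −0.43, with values from −1.01 to −0.14. NDUFA5 (ENSSSCG00000037869, chr18:23881872-23896699, plus strand) sits on the quinone module. It had 136 and 101 CPM in MI hearts, against 226, 210.0 and 278 CPM in naive hearts. The log2 fold change was −1.01 (SE 0.249, edgeR adjusted p = 0.0308), and the groups did not overlap. NDUFA6, which docks an acyl carrier protein, followed at −0.88, and NDUFA9, a subunit beside the quinone site that binds a nucleotide cofactor, at −0.68. NDUFS6, which holds a zinc ion, was at −0.43, NDUFA12 at −0.32 and NDUFV3 at −0.31. NDUFS4, which helps to fix the NADH module to the rest and whose loss causes Leigh syndrome in humans, was at −0.14. These last 6 were not called.

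The membrane arm held no called member on day 28. The 8 accessory members of its proximal part, which lies near the matrix arm, had a median log2 fold change of −0.56, from −0.90 for NDUFC1 to −0.25 for the X-linked NDUFA1. The 7 of the distal part had a median of −0.50, from −0.81 for NDUFB2 to 0.01 for NDUFB4, the member with the highest value on this day. NDUFB4 had 99.1 and 59.1 CPM in MI hearts, against 77.6, 64.2 and 93.7 CPM in naive hearts, so the MI libraries enclosed the naive ones (SE 0.280, edgeR adjusted p = 0.985). NDUFC2, a proximal subunit, had the smallest adjusted p outside the called members, with 123 and 121 CPM in MI hearts and 203, 199 and 249 CPM in naive hearts (log2 fold change −0.83, SE 0.262, edgeR adjusted p = 0.0617).

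Of the members, 2 bear the NDUF name without being counted among complex I subunits today. NDUFA4 is a subunit of cytochrome c oxidase, and NDUFA4L2 is its paralogue, known in human cells as a gene induced by hypoxia. NDUFA4 had 667 and 334 CPM in MI hearts, against 597, 581 and 556 CPM in naive hearts on day 28, with edgeR's log2 fold change at −0.21 ± 0.321 (SE) and its adjusted p at 0.707. NDUFA4L2 had 23.5 and 10.5 CPM in MI hearts, against 25.2, 26.8 and 16.3 CPM in naive hearts, with edgeR's log2 fold change at −0.42 ± 0.344 (SE) and its adjusted p at 0.449. In both, the MI replicates fell on either side of some or all naive libraries. RefSeq annotates 1 pseudogene of NDUFA4, on chromosome 13, so reads of this gene may have been split or dropped in counting.

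**Figure D4:**
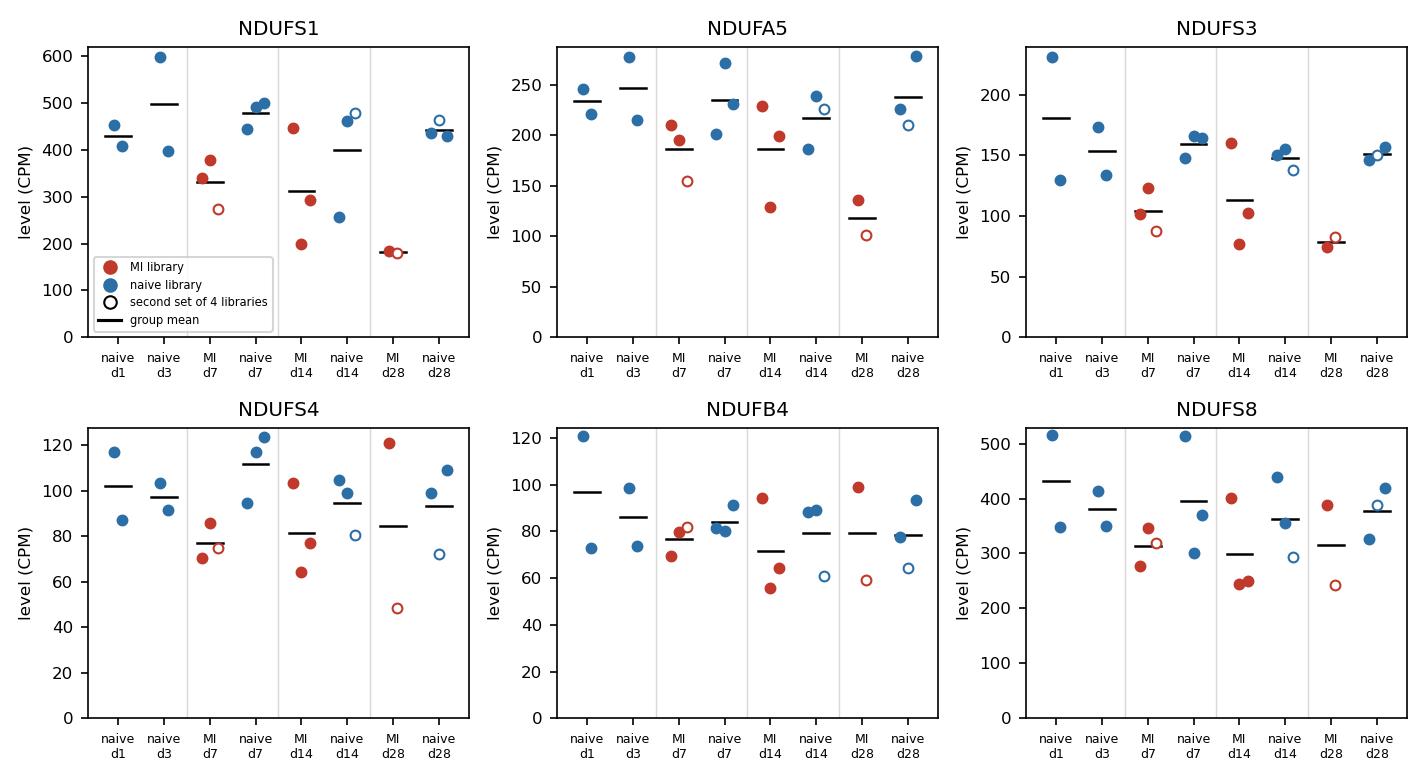
Level in CPM (y axis) of 6 members in every library, by group (x axis), with MI libraries in red, naive libraries in blue, the 4 libraries that stand apart as open circles and group means as lines. NDUFS1, NDUFA5 and NDUFS3 have both MI day 28 libraries below all naive libraries of that day, while for NDUFS4, NDUFB4 and NDUFS8 MI day 28 replicate 1 lies within or above them.

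The calls of day 28 depended on single libraries. Leaving out naive day 28 replicate 1, 2 or 3 left 0 members called, where 2.05%, 1.1% and 0.111% of all genes were called. Leaving out MI day 28 replicate 1 or 2 left 1 MI library on that day, and the members' median was −0.80 and −0.31. The log2 fold change of NDUFS1 ran from −1.31 to −1.23 over these fits, that of NDUFA5 from −1.21 to −0.79 and that of NDUFS3 from −0.999 to −0.85. The edgeR adjusted p ran from 0.0561 to 0.0876 for NDUFS1, 0.0289 to 0.132 for NDUFA5 and 0.0824 to 0.157 for NDUFS3. With the 4 libraries that stand apart left out, 1 MI library was left on day 28. The log2 fold changes were then −1.23 for NDUFS1, −0.89 for NDUFA5 and −1.02 for NDUFS3. Within these 4 libraries on day 28, NDUFS1 had 180 CPM in MI replicate 2 and 464 CPM in naive replicate 2, and among the others it had 183 CPM in MI replicate 1, against 436 and 430 CPM in naive replicates 1 and 3.

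The 2 MI hearts of day 28 differed from each other in which members were low. Set against the naive mean of that day, replicate 2 had all 31 members at 40.7% to 80.8%, with a median of 56.4%. Replicate 1 ranged from 41.4% to 129%, with a median of 79.3%. In replicate 1, 8 members were under 60% of the naive mean: NDUFS1, NDUFS3, NDUFC1, NDUFA11, NDUFC2, NDUFA5, NDUFA6 and NDUFB2. In the same heart 12 members were over 90%, among them NDUFS4 at 129%, NDUFB4 at 126%, NDUFA4 at 115%, NDUFB9 at 107%, NDUFS7 at 105% and NDUFS8 at 103%. Replicate 2 had 21 members under 60% and 0 over 90%. On this scale NDUFS1 stood at nearly the same value in the 2 hearts, 41.4% and 40.7%, while NDUFS4 stood at 129% in replicate 1 and 51.9% in replicate 2. The limits of 60% and 90% were chosen after the values were seen and carry no test. All these percentages use TMM-scaled CPM, with TMM factors of 0.818 in replicate 1 and 1.19 in replicate 2. In CPM without TMM scaling, the members summed to 4292 CPM in replicate 1 and 4370 CPM in replicate 2. With TMM scaling these sums were 5246 and 3681 CPM, so which heart was lower depended on the scaling. Naive hearts of day 28 summed to 6371, 5114 and 7288 CPM without it.

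**Figure D5:**
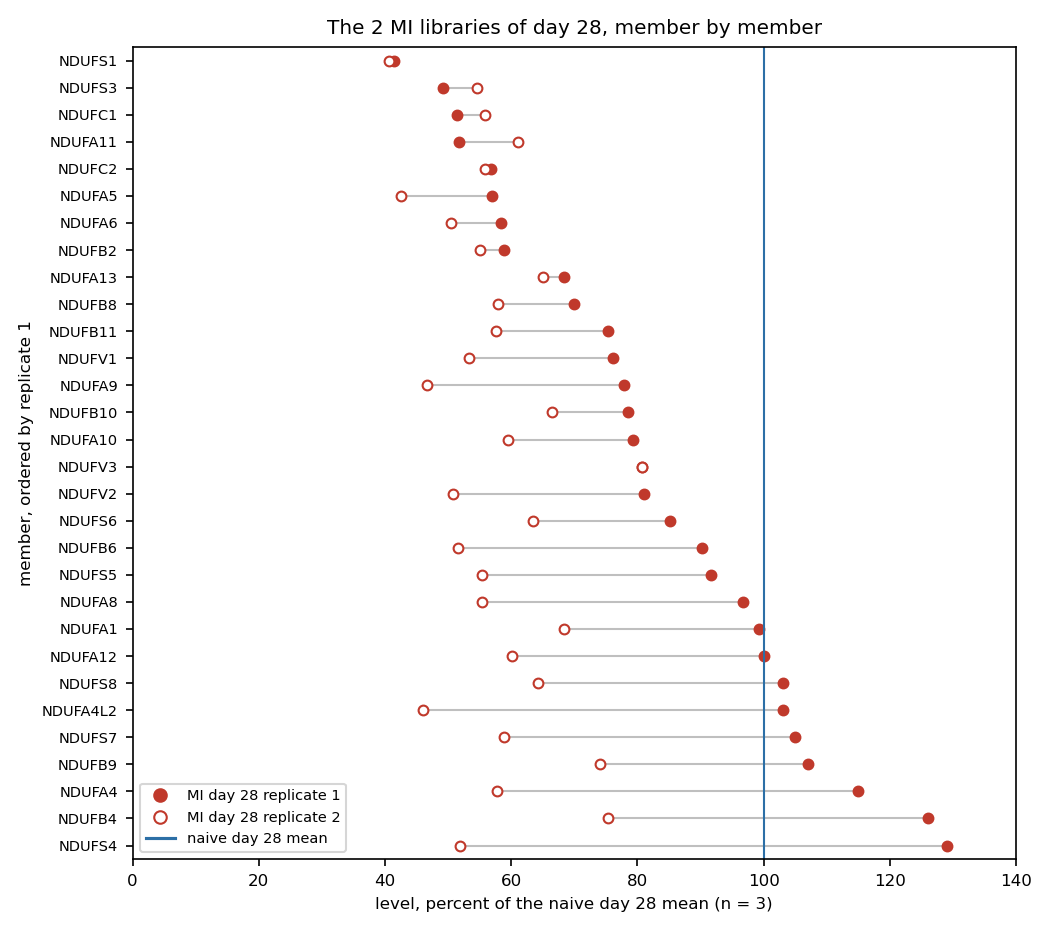
Level of 30 of the members (rows, ordered by replicate 1) in the MI day 28 libraries as a percentage of the naive day 28 mean (x axis), with replicate 1 filled, replicate 2 open and the naive mean as a line at 100%. On this TMM scale, replicate 2 keeps every member between 40.7% and 80.8%, whereas replicate 1 spreads from 41.4% for NDUFS1 to 129% for NDUFS4. Without TMM scaling, the members' sums were 4292 CPM in replicate 1 and 4370 CPM in replicate 2.

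Markers of heart muscle and of other cells moved on the same day. The summed cardiomyocyte markers were at 53830 and 39110 CPM in MI hearts, against 74340, 90440 and 80680 CPM in naive hearts on day 28, and edgeR called 2 of the 10 tested markers lower (MYL2 and CASQ2). Per 1000 CPM of these markers, the members summed to 97.5 and 94.1 CPM in MI hearts and to 81.0, 69.5 and 86.7 CPM in naive hearts. Macrophage markers were called higher for 7 of 8, with sums of 316 and 3627 CPM in MI hearts and 69.9 to 366 CPM in naive hearts. Smooth muscle markers were called higher for 4 of 5, with sums of 1029 and 271 CPM in MI hearts and 206 to 453 CPM in naive hearts. Adipocyte markers were called higher for 2 of 4 (sums 641 and 142 CPM in MI, 132 to 244 CPM in naive hearts) and fibroblast markers for 1 of 8 (sums 1750 and 20120 CPM in MI, 3750 to 6465 CPM in naive hearts). The high sums of macrophage and fibroblast markers were in MI replicate 2, and those of smooth muscle and adipocyte markers in MI replicate 1. TAGLN, a called smooth muscle marker, was low throughout and similar in both MI hearts (1.87 and 1.95 CPM, against 0.416 to 0.595 CPM in naive hearts). Of the lymphocyte, endothelial, erythroid, atrial and skeletal muscle markers tested, 0 were called. The part of these differences in the members' values was not tested.

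On day 7, edgeR called 0 of the 31 members and 0% of all genes, and DESeq2 called 0 members and 1.8% of all genes. The values nevertheless lay mostly on the low side: 29 members had a log2 fold change below 0, their median was −0.34 against 0.03 over all genes, and 5 had an unadjusted p under 0.05, as had 12.4% of all genes. Without the 4 libraries that stand apart, 29 members were below 0 on day 7, with a median of −0.33. In 14 members every MI library was below every naive library, an order held by 10.4% of all genes. NDUFB6, a short distal membrane subunit, had the smallest p, with 84.2, 94.3 and 76.7 CPM in MI hearts and 115, 133 and 157 CPM in naive hearts (log2 fold change −0.67, SE 0.253, edgeR adjusted p = 0.307). NDUFS1 had 340.1, 379.5 and 275 CPM in MI hearts, against 444, 492 and 499 CPM in naive hearts, without overlap and without a call (log2 fold change −0.53). NDUFA1, with 100.5, 115 and 89.9 CPM in MI hearts and 66.5, 92.7 and 92.8 CPM in naive hearts, and NDUFS6 were the members above 0. Cardiomyocyte markers summed to 65780 to 75510 CPM in MI hearts and 58160 to 74810 CPM in naive hearts on this day, with a median log2 fold change of 0.06 over 10 markers. Per 1000 CPM of them, the members summed to 73.8, 83.4 and 62.6 CPM in MI hearts and 86.7, 105 and 98.0 CPM in naive hearts.

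On day 14, edgeR and DESeq2 called 0 members, where edgeR called 0% and DESeq2 0.0775% of all genes. With edgeR, 0 members had an unadjusted p under 0.05, against 5.35% of all genes. All 31 log2 fold changes were below 0, with a median of −0.25 against −0.0068 over all genes, but 0 members were free of overlap with the naive libraries, an order that 4.49% of all genes showed with MI lower. NDUFS3 had the smallest p, with 160.1, 76.7 and 103 CPM in MI hearts and 150.2, 156 and 138 CPM in naive hearts (log2 fold change −0.39, SE 0.238, edgeR adjusted p = 0.999). MI replicate 1 was above and replicates 2 and 3 were below the naive libraries. The members' median was −0.52 without MI day 14 replicate 1 and −0.07 without replicate 2, and it was −0.14 without naive day 14 replicate 1. Without the 4 libraries that stand apart, 30 members were below 0 on day 14, with a median of −0.315. Cardiomyocyte markers summed to 70910, 51470 and 58310 CPM in MI hearts, in the same order as the members, and to 60170 to 101100 CPM in naive hearts.

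Across the 3 days, 28 of the 31 members had a log2 fold change below 0 each time, as had 15.9% of all genes. A test of the mean MI effect over the days was added after these values were seen. It called 5 members lower and 0 higher with edgeR, where 4.43% of all genes were called and 2.07% were called lower. These were NDUFS3 (log2 fold change −0.65, SE 0.145, adjusted p = 0.0249), NDUFS1 (−0.72, SE 0.163, adjusted p = 0.0260), NDUFA5 (−0.52, SE 0.131, adjusted p = 0.0383), NDUFB2 (−0.56, SE 0.147, adjusted p = 0.0415) and NDUFV2 (−0.46, SE 0.128, adjusted p = 0.0497). All 31 members were below 0, with a median of −0.41 against 0.03 over all genes. The libraries are those of the single-day comparisons, so the calls are no separate evidence. Without naive day 14 replicate 2 the count was 0 (1.21% of all genes), and without MI day 14 replicate 1 it was 14 (7.06% of all genes). Leaving out any other naive library of these days, or any other MI library of days 7 and 14, gave 1 to 3 calls. NDUFS1 was among them each time, and 1.53% to 6.8% of all genes were called. Without MI day 28 replicate 1, replicate 2 or the 4 libraries that stand apart, 1 MI library was left on day 28. The members' median was then −0.456, −0.325 and −0.345.

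The MI effect was not shown to differ between days for any member. In edgeR's test of the day 28 effect minus the day 7 effect 0 members were called, as were 0.013% of all genes, and 0 members had an unadjusted p under 0.05, against 19% of all genes. The smallest p belonged to NDUFA5, with a difference of −0.68 on the log2 scale (95% confidence interval −1.37 to 0.01, adjusted p = 0.270). For the day 28 effect minus the day 14 effect 0 members and 0% of all genes were called, and 2 members had an unadjusted p under 0.05, against 11.6% of all genes. NDUFA5 again had the smallest p, at −0.78 (95% confidence interval −1.47 to −0.09, adjusted p = 0.399). DESeq2 called 0 members in either test, against 4.77% of all genes in the first and 0.245% in the second. These contrasts share the day 28 libraries.

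In naive hearts, no change of the members with age passed the test in the contrasts run, and day 3 was in none of them. Between day 7 and day 1, day 14 and day 7, day 28 and day 14, and day 28 and day 1, edgeR and DESeq2 called 0 members. Of all genes, DESeq2 called 0.0584%, 0.636%, 0.00487% and 0% in that order, and edgeR 0%, 0%, 0% and 0%. Unadjusted p-values under 0.05 were found for 1, 0, 0 and 0 members in that order, and for 5.44%, 8.84%, 1.15% and 5.27% of all genes. The 1 was NDUFA1, with 66.5, 92.7 and 92.8 CPM on day 7, against 214 and 107 CPM on day 1 (log2 fold change −0.93, SE 0.314, edgeR adjusted p = 0.869). NDUFA1 also had the smallest p from day 7 to day 14, with 143, 114 and 84.4 CPM on day 14 (log2 fold change 0.44, SE 0.285, edgeR adjusted p = 0.700). From day 14 to day 28 it was NDUFS6, with 156, 183 and 196 CPM on day 28 and 133, 166 and 161 CPM on day 14 (log2 fold change 0.22, SE 0.193, edgeR adjusted p = 1).

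Over the whole span of naive hearts, day 28 over day 1, the members' median log2 fold change was −0.14, against 0.039 over all genes, and 26 of 31 were below 0. This direction rested on single day 1 libraries: without replicate 1 the median was 0.21 with 2 members below 0, and without replicate 2 it was −0.485 with all 31 below 0. Without naive day 28 replicate 3 it was −0.27. The lowest were the pair that are not complex I subunits. NDUFA4L2 had 25.2, 26.8 and 16.3 CPM on day 28, against 38.5 and 29.1 CPM on day 1 (log2 fold change −0.57, SE 0.337, edgeR adjusted p = 0.867). NDUFA4 had 597, 581 and 556 CPM on day 28, against 1049 and 601 CPM on day 1 (log2 fold change −0.51, SE 0.316, edgeR adjusted p = 0.867). These were the 2 members whose day 28 libraries were all below those of day 1, an order seen in 12.5% of all genes. The highest was NDUFB9, a distal membrane subunit, at 0.10 (SE 0.355, edgeR adjusted p = 0.962). Of the core members between these, NDUFV1 was at 0.09 (SE 0.238), NDUFS1 at 0.04 (SE 0.299), NDUFV2 at −0.12 (SE 0.236), NDUFS7 at −0.14 (SE 0.301), NDUFS8 at −0.19 (SE 0.288) and NDUFS3 at −0.26 (SE 0.265), with edgeR adjusted p from 0.873 to 0.980. For NDUFS1 the 95% confidence interval was −0.59 to 0.68. The day 1 replicates differed widely, as for NDUFS3 with 232 and 130 CPM, and leaving out 1 of them turned the sign for each of these 6 core members and for NDUFB9.

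The rows with an NDUF symbol only in the reference table included called genes as well. NDUFB5, a distal membrane subunit, had 64.0 and 43.3 CPM in MI hearts, against 95.2, 104 and 117 CPM in naive hearts on day 28 (log2 fold change −0.97, SE 0.277, edgeR adjusted p = 0.0456). NDUFAB1, the mitochondrial acyl carrier protein, had 149 and 127 CPM in MI hearts, against 215, 231 and 237 CPM in naive hearts (log2 fold change −0.72, SE 0.253, edgeR adjusted p = 0.0844). Averaged over the 3 days both were called lower, at −0.64 (edgeR adjusted p = 0.0274) and −0.55 (edgeR adjusted p = 0.0350). NDUFB1 was at −0.29 on day 28 (edgeR adjusted p = 0.597), and NDUFA2 was listed at 0 in every library.

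Other genes of the pathway were taken from lists. Of 19 complex I assembly genes 17 were tested, and on day 28 edgeR called 2 lower and 0 higher, with a median log2 fold change of −0.61. NDUFAF4, an assembly factor of the quinone module, was at −1.39 (SE 0.282, adjusted p = 0.0180), and TIMMDC1, an assembly factor of the membrane arm, at −0.79 (SE 0.225, adjusted p = 0.0461). ECSIT, another membrane arm factor, was at −1.01 on day 28 (SE 0.302, adjusted p = 0.0517) and was called lower over the mean of the days, at −0.71 (SE 0.159, adjusted p = 0.0260). On days 7 and 14, 0 of the 17 were called, with medians of −0.32 and −0.16.

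The 7 complex I subunits encoded in mitochondrial DNA showed no call on any day. Their summed level was 89580 and 46320 CPM in MI hearts, against 41860, 115800 and 44120 CPM in naive hearts on day 28, so the libraries of each group differed from each other more than the groups did. The highest of the 5 was naive replicate 2, which is among the 4 libraries that stand apart. Over all naive libraries this sum was 6.31 to 22.7 times that of the nuclear members, and over MI libraries 8.88 to 18 times. The median log2 fold change of the 7 genes was −0.05 on day 7, −0.37 on day 14 and 0.07 on day 28.

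Of 11 regulators of respiratory genes, 0 were called on days 7, 14 and 28, with medians of 0.31, −0.03 and −0.41. PPARGC1A, the coactivator PGC-1α that drives mitochondrial biogenesis, was at −1.04 on day 28 (SE 0.327, edgeR adjusted p = 0.0595) and at 0.04 on day 7 (SE 0.283, edgeR adjusted p = 0.976). NRF1, a transcription factor of respiratory genes, was at 0.61 on day 7 (SE 0.164, edgeR adjusted p = 0.157) and 0.30 on day 28 (SE 0.182, edgeR adjusted p = 0.299). It was called higher over the mean of the days, at 0.41 (SE 0.0981, edgeR adjusted p = 0.0314), and the other 10 regulators were not. GABPA, the ETS factor also called NRF-2 alpha, was at −0.14 on day 28 (SE 0.163, edgeR adjusted p = 0.615).

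The members do not form a cluster in the genome. RefSeq places all 31 on 15 chromosomes, 2 of them (NDUFA1 and NDUFB11) on X. Of the members, 7 overlap a gene on the opposite strand: NDUFA1, NDUFA8, NDUFB10, NDUFB11, NDUFB4, NDUFS3 and NDUFS4. For them reads of both genes cannot be told apart without the strand setting. Of the partners in the table, 1 was called on day 28: RPS2, which overlaps NDUFB10, had 5.80 and 3.62 CPM in MI hearts and 1.07, 1.67 and 0.931 CPM in naive hearts (edgeR adjusted p = 0.0438). RPS2 was low throughout, with a mean of 1.77 CPM over all libraries, against 155.1 to 340.6 CPM for NDUFB10. Other partners were not low. RPL3L, which also overlaps NDUFB10, had a mean of 101 CPM. On day 28 it had 208 and 78.4 CPM in MI hearts and 105, 174 and 33.3 CPM in naive hearts. RBM10, which overlaps NDUFB11, had a mean of 112 CPM, against 106.5 to 261.6 CPM for NDUFB11.

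The 250 bases upstream of the annotated start were searched on both strands for 4 short motifs, as a description. The NRF1 motif GCGCANGCG was found for 5 of the 31 members (16.1%) and for 6.59% of 19556 RefSeq genes. These members were NDUFA12, NDUFA5, NDUFB4, NDUFS6 and NDUFV3, of which only NDUFA5 was called on day 28. The ETS motif CCGGAAG was found for 6 members (19.4%) and for 7.77% of the genes. Those 6 were NDUFA10, NDUFA9, NDUFB9, NDUFS1, NDUFS3 and NDUFV1, with the match 81 to 75 bases before the start in NDUFS1 and 25 to 19 bases before it in NDUFS3, as printed above. NDUFA5 has the NRF1 letters 60 to 52 bases before its start. The CCAAT box was found for 9 members (29%) and 31.9% of the genes. The oestrogen-related receptor motif AAGGTCA was found for 0 members and 3.21% of the genes. None of the 4 was found for 13 members (41.9%) and 56.6% of the genes. The windows had a median GC content of 60% in the members and 57.6% over all genes, and no motif overlap with another of the 4 was searched for.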

How the data were processed

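Whole-tissue RNA from 21 pig hearts was analysed from the authors' deposited table of raw counts, whole numbers for 25880 Ensembl genes. Per the submitters' processing notes the tools were Trim Galore, STAR 2.5.2, HTSeq 0.6.1 and DESeq2, with genome build Sscrofa11.1. The sources used here do not give the annotation release or strand setting. Samples were grouped by their labels into 8 groups, and pig numbers matched the table's columns.

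From these counts, edgeR 4.0.16 (R 4.3.3) was run with TMM scaling, filterByExpr (15359 genes) and 1 mean per group over all 21 libraries (glmQLFit, robust; 13 residual degrees of freedom; biological coefficient of variation 0.373). Contrasts were tested two-sided with the quasi-likelihood F-test, adjusted by Benjamini-Hochberg over all genes, and called at 0.05. CPM use TMM-scaled library sizes. Standard errors were derived from the F statistic. The code was tested on simulated data.

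The members and gene lists were chosen with earlier results of these data known. Full statistics are given for up to 4 called members per comparison, the member with the smallest p where none was called, core subunits and the extremes on day 28 against naive and over naive age, NDUFA4 and NDUFA4L2. The values of 1 member are not reported here, and it enters sums and counts only. NDUFC2 and others outside this rule were picked after their values were seen. Lists, described by counts and medians, were complex I assembly, mitochondrially encoded subunits, regulators, and markers of cardiomyocytes and 9 other cell or tissue types. Alternatives were RLE size factors, no low-count filter, DESeq2 1.42.0, only the groups compared, a term for or removal of the 4 libraries that stand apart, and leaving out each library.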

Additional observations from a re-analysis of the deposited data

How the results depend on the processing

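No paired analysis was possible because the pig numbers are not shared between groups. On day 28, 3 members were called. The count was 0 with only the groups compared, 0 without the 4 libraries that stand apart, and 0 to 1 when single libraries were left out. With RLE size factors, no low-count filter and a term for the library set it was 2 (NDUFS1 and NDUFA5), and with DESeq2 it was 4 (NDUFC2 added). For the mean of the days, 4.43% of all genes were called, and 10.3% with DESeq2. Of the members, 5 were called. The count was 3 without a low-count filter (2.22% of all genes), 3 with only the groups compared (2.89%) and 13 with DESeq2. It was 0 to 14 without single naive libraries of these days or single MI libraries of days 7 and 14 (1.21% to 7.06% of all genes). Without the 4 libraries, which left 1 MI library on day 28, the members' median was −0.345. Fewer samples enter the fits without libraries or with only the groups compared, and the cause of the changed counts was not tested under any setting. Over all genes, the calls of day 28 numbered 1053. They numbered 2 with only the groups compared, and 17, 169 and 314 without naive day 28 replicate 3, 2 and 1. RLE size factors gave 1120, no low-count filter 721, a term for the library set 646 and DESeq2 2213. In the fits that left 1 MI library on day 28, the calls over all genes did not fall in this way, although members lost their calls. Counts of 0 in the other comparisons stayed at 0 members under every alternative run. RLE size factors left the number of members below 0 at 29, 31 and 30 on days 7, 14 and 28. Without the 4 libraries, 23 of 31 members were below 0 on day 28, and without MI day 28 replicate 2, 22 were.

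Signs of small, uncalled values turned under some settings. Without the 4 libraries, the day 28 log2 fold changes, MI over naive, were 0.11 for NDUFS7, 0.066 for NDUFS8, 0.22 for NDUFA4 and 0.19 for NDUFA4L2, and the naive day 28 over day 1 value of NDUFS1 was −0.0016. With single libraries left out, the day 28 values, MI over naive, ran from −0.74 to 0.090 for NDUFS7, −0.62 to 0.062 for NDUFS8, −0.39 to 0.36 for NDUFB4, −0.77 to 0.23 for NDUFA4 and −1.09 to 0.075 for NDUFA4L2. The naive day 28 over day 1 values ran from −0.17 to 0.33 for NDUFV1, −0.36 to 0.11 for NDUFV2, −0.068 to 0.11 for NDUFS1, −0.65 to 0.21 for NDUFS3, −0.57 to 0.38 for NDUFS7, −0.48 to 0.11 for NDUFS8 and −0.32 to 0.62 for NDUFB9. Libraries held 37002909 counts or more, and the biological coefficient of variation over all genes was 0.373. What depth and group size each add to the error was not compared.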
